A study of Mus musculus with 4 samples.

Results

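Ly6c2 monocytes with little C1q are cells of MC38b tumours that carry transcripts of inflammatory monocytes and few or none of complement C1q. MC38 is a mouse colon carcinoma line, and the tumours were grown in mice. The cells were chosen by counts of unique molecular identifiers (UMIs, each standing for 1 captured transcript) in single-cell libraries. A barcode was a member if it held at least 1000 UMIs, at least 500 genes and under 10% mitochondrial UMIs. It also had to hold at least 5 UMIs of Lyz2, at least 3 of Ly6c2, Ccr2 and Vcan together, at most 3 of C1qa, C1qb and C1qc together, and at most 1 each of Csf3r and Cd209a, with none of Cd3d, Cd3e, Cd3g, Siglech or Xcr1. The rule took 1278 of 37588 barcodes (3.4%, or 3.9% of the 32779 that passed the quality part), and 1058 of the 1278 held no C1q UMI at all (82.8%).

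There were 337 members where anti-PD-1 plus anti-TL1A had been given (the combination library), 445 in the anti-PD-1 library, 258 in PBS 1 and 238 in PBS 2. Antibodies and saline (PBS) were given in 2 doses, and tumours were taken 24 hours after the last dose. PD-1 is a receptor that restrains activated T cells. TL1A (Tnfsf15) is a TNF-family cytokine that signals through DR3 (Tnfrsf25). The title asks whether anti-TL1A adds to anti-PD-1. Cells were sorted as CD45+CD3+, CD45+CD3- and CD45-CD3- and remixed at 9 to 9 to 2 parts, so shares are given only within the CD3-negative immune cells. The text counts 2 saline and 4 treated animals and says that suspensions were pooled. It does not say whether a PBS library is 1 animal or a pool. Each treated group is 1 library, so p-values rest on the spread between the PBS pair, which may be technical, and on its pooling over genes.

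Monocytes of this kind leave the bone marrow through CCR2, enter inflamed tissue and tumours, and can mature there into macrophages, losing Ly6C and gaining C1q and MHC class II on the way. They respond strongly to interferon-gamma from T and NK cells, with guanylate-binding proteins, antigen presentation genes and the feedback inhibitor SOCS1. Patrolling monocytes are a related class with low Ly6C, high CX3CR1 and expression of Ace and Treml4.

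The promoters of genes that carried the largest interferon differences in these cells are shown first. They are the 6 interferon-gamma genes with the highest fold among those that rose with the combination (Gbp4 is among them and is named only), plus Isg15, which marks one cluster of the cells and was added after its values were seen. Each run covers the 250 bases before and 50 bases after the start site, read on the gene's strand from RefSeq (GRCm38.p6). Capitals mark matches, on either strand, to an ISRE-type motif (GAAA, any 2 bases, GAAA), which interferon-regulated transcription factors are known to bind, or to a GAS-type motif (TTCNNNGAA), a kind of element known from interferon-gamma-inducible genes.
Socs1: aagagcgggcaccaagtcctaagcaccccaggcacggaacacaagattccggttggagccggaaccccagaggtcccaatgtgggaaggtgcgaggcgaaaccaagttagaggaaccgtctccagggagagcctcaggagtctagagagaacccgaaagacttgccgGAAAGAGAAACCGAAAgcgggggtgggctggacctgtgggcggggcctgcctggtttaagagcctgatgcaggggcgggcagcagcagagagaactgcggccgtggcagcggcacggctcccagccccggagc
Gbp2: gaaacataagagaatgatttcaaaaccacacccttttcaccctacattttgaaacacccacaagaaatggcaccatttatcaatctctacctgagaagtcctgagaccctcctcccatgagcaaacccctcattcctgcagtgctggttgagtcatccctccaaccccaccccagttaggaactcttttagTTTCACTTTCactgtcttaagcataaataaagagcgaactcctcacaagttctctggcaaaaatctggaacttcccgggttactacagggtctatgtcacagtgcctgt
Gbp7: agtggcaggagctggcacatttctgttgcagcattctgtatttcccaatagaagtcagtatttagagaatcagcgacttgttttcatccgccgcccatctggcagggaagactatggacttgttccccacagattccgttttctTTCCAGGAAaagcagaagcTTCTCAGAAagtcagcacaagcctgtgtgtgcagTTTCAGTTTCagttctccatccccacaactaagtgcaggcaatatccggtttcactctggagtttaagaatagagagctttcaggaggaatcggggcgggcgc
Psmb9: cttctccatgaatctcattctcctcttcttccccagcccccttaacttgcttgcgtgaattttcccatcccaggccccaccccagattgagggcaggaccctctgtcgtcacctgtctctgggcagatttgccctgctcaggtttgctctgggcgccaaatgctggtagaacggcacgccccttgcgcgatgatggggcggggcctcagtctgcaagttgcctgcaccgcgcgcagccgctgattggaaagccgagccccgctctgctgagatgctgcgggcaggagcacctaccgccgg
Fcgr4: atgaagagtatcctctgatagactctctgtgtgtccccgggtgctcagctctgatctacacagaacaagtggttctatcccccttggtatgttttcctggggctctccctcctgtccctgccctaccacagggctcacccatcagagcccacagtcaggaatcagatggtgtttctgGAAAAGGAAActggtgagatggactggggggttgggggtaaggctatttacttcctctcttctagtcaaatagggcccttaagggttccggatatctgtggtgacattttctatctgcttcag
Isg15: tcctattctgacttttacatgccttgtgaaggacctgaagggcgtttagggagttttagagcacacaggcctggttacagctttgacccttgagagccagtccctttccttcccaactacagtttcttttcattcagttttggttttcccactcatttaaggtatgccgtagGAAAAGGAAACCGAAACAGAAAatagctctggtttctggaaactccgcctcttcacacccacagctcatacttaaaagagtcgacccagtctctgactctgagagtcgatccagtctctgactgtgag
The windows lie at chr16:10785487-10785786 on the minus strand (Socs1), chr3:142620413-142620712 on the plus strand (Gbp2), chr3:142530086-142530385 on the plus strand (Gbp7), chr17:34187281-34187580 on the minus strand (Psmb9), chr1:171018676-171018975 on the plus strand (Fcgr4) and chr4:156200769-156201068 on the minus strand (Isg15). The ISRE-type motif begins at -59 from the start in Gbp2, at -53 in Gbp7 and at -73 in Fcgr4. It occurs 2 times, overlapping, at -83 and -77 in Socs1, and 3 times, overlapping, between -78 and -66 in Isg15. Gbp7 also holds the GAS-type motif at -106 and -87. Psmb9 matches neither motif in this window. Its GENCODE gene begins at chr17:34187764 on the minus strand, upstream of the window, so the bases around that start were not searched. Of 32851 RefSeq promoters of this length, 3.44% hold the ISRE-type motif and 8.3% the GAS-type motif. A match is a description of the letters, not a shown binding site.

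The label was checked against markers. Ly6c2, Ccr2 and Vcan helped to choose the members, so their levels describe the choice. Levels are given as CPM, the UMIs of a gene per 1000000 UMIs summed over all members of a library. Ly6c2, which encodes the Ly6C surface protein (chr15:75108158-75111970), had 1354 CPM in the combination library, 1661 CPM in the anti-PD-1 library, 1095 CPM in PBS 1 and 1133 CPM in PBS 2. Ccr2, the receptor for the chemokine CCL2, had 620.8, 606.9, 688.9 and 756.8 CPM in the same order of libraries. The rule did not use Chil3, a chitinase-like secreted protein of classical monocytes, or Plac8. Chil3 had 896, 992.1, 688.9 and 678.2 CPM in the monocytes, against 0.456, 9.92, 2.48 and 0 CPM in C1q macrophages of the same libraries (cells with under 3 UMIs of the monocyte genes and at least 10 of C1q). Plac8 had 3309, 1782, 2694 and 1989 CPM in the monocytes, against 26.4, 36.2, 4.14 and 6.96 CPM in the macrophages. Both unused markers were thus high in every library of the monocytes and low in every library of the macrophages.

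Intermediates, which meet the monocyte rule but hold over 3 C1q UMIs, lay between the other classes for both unused markers, with 48.05 to 127.2 CPM of Chil3 and 213.8 to 621.9 CPM of Plac8. The monocytes were not free of macrophage transcripts. Apoe, a lipid carrier of mature macrophages, had 1044, 1575, 1833 and 1693 CPM in the monocytes, against 7692, 9536, 9412 and 5912 CPM in the macrophages. Chil3 and Plac8 were also present in neutrophils (325.5 to 739 CPM and 943.1 to 1559 CPM), so they do not separate monocytes from neutrophils. S100a8, a neutrophil alarmin, does so with 6.79 to 19.3 CPM in the monocytes and 7857 to 14040 CPM in the neutrophils. The neutrophil gene Retnlg had 1 UMI in all monocytes together. Conventional dendritic cell genes were low, with 98 UMIs of Flt3 and 23 of Zbtb46 over all members.

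**Figure D1:**
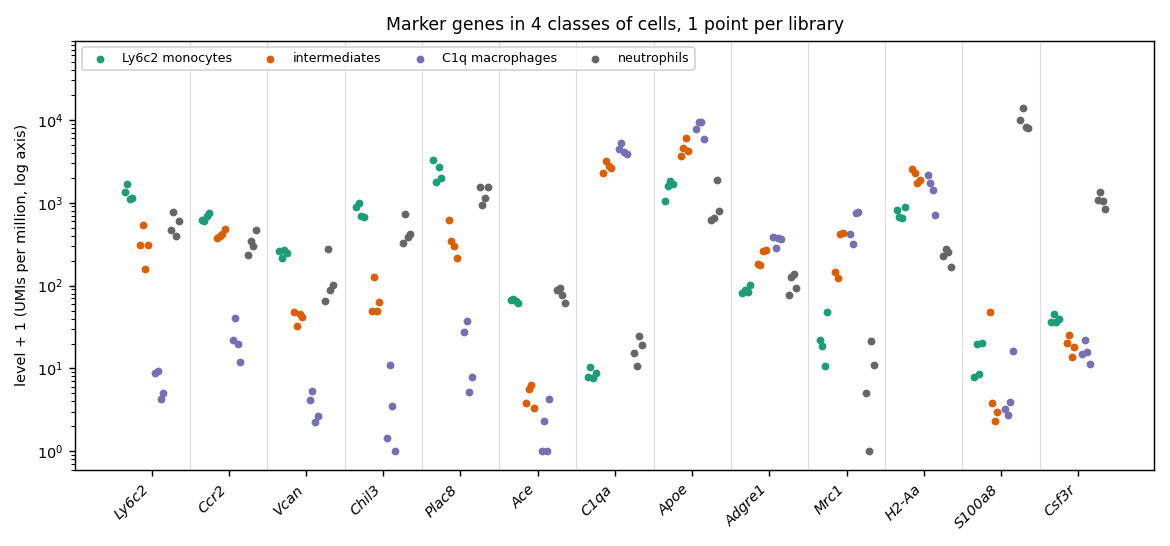
Levels of marker genes in the Ly6c2 monocytes, intermediates, C1q macrophages and neutrophils, as CPM plus 1 on a log axis. Each point is 1 library, from left to right the combination, anti-PD-1, PBS 1 and PBS 2 libraries. Chil3 and Plac8, which did not choose the members, sat at 678.2 CPM and above in every monocyte library and at 36.2 CPM and below in every macrophage library.

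Some barcodes carried transcripts of other lineages, and this bears on all tests. The T, NK and B cell list summed to 347.0, 389.8, 241.7 and 238.9 CPM in the combination, anti-PD-1, PBS 1 and PBS 2 monocytes, with 3 of its 21 genes at 0 (the Cd3 genes that the rule bars). The CD45-negative list summed to 254.1, 162.1, 469.1 and 42.83 CPM, with 4 of 12 genes at 0. Members with over 30000 UMIs numbered 2, 2, 3 and 0 and held 7.65%, 6.10%, 9.76% and 0% of the members' UMIs. Leaving out members with over 30000 UMIs, or with at least 5 UMIs of either list, removed 29, 21, 11 and 14 barcodes. The 1203 members left had list sums of 109.2, 132.0, 86.97 and 84.52 CPM for T, NK and B cell genes and 57.69, 51.06, 35.38 and 41.41 CPM for CD45-negative genes. This selection was made after seeing the data. Medians per member were 7303, 5233, 8213.5 and 9830 UMIs, so the anti-PD-1 monocytes were the shallowest. Whole libraries held between 78648222 and 142600208 UMIs, and the members' sums lay between 2383520 and 2797875 UMIs.

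Libraries also shared barcode sequences: 1255 between anti-PD-1 and PBS 1, 1778 between anti-PD-1 and PBS 2, 673 between the PBS libraries, and 39, 21 and 23 between the combination library and anti-PD-1, PBS 1 and PBS 2. No barcode was a member in more than 1 library. Members whose barcode also occurred in another library numbered 0, 7, 8 and 7 in the combination, anti-PD-1, PBS 1 and PBS 2 libraries.

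The members just inside and just outside the rule were close to each other in depth. There were 17 cells with exactly 3 C1q UMIs (median 7693 UMIs) and 16 otherwise alike with 4 (median 8167.5 UMIs). At the other edge, 54 cells had exactly 3 UMIs of Ly6c2, Ccr2 and Vcan, and 68 had 2. Ace stood at 196.6 CPM just inside and 192.4 CPM just outside that edge, and Chil3 at 701.1 and 311.2 CPM.

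Among mononuclear phagocytes, counted as monocytes, intermediates and C1q macrophages together, the monocytes made up 53.1% in the combination library (95% exact Clopper-Pearson interval 49.1 to 57.0), 51.3% in the anti-PD-1 library (47.9 to 54.6), 41.5% in PBS 1 (37.6 to 45.5) and 50.6% in PBS 2 (46.0 to 55.2). The intervals cover counting error only. Both treated shares lay above both PBS shares, but the PBS libraries differed from each other by more than either treated library differed from PBS 2. Without barcodes shared between libraries, PBS 2 stood highest, at 63.8%. Of CD3-negative barcodes with Ptprc (CD45), the monocytes were 10.7%, 12.7%, 12.1% and 13.3% in the same order. A UMI of Mki67, Top2a or Ube2c, genes of dividing cells, was present in 19.6%, 14.2%, 14.3% and 21.0% of members, which put the combination library within the range of the PBS pair and the anti-PD-1 library at its lower end.

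The monocytes were not uniform. Clustering them on their own gave 10 clusters, which are described by their leading genes and carry no cell type name. Since the clusters were made from these genes, their levels are a description. Cluster 1 (282 cells) had the highest Nrg1 (802.6 CPM) and F13a1, the coagulation factor XIII subunit, at 994.8 CPM, with Ly6a at 7.99 CPM and H2-Ab1 at 51.7 CPM. Cluster 2 (203 cells) was opposite in this, with Ly6a at 1362 CPM, the MHC class II gene H2-Ab1 at 2887 CPM, Arg1 at 561.3 CPM and Chil3 at only 255.5 CPM. Ly6a encodes Sca-1, an interferon-inducible surface protein, and Arg1 the arginine-degrading enzyme arginase-1.

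Cluster 3 (193 cells) shared Arg1 with cluster 2 (501.2 CPM) and stood out by Egln3, an oxygen-sensing hydroxylase that hypoxia induces, at 68.2 CPM against 0 to 22.4 CPM elsewhere. Cluster 4 (187 cells) carried patrolling-monocyte genes, with Ace at 313.7 CPM, Treml4 at 130.7 CPM and the scavenger receptor Cd36 at 250.7 CPM, together with the lowest Ly6c2 among the clusters of at least 50 cells (894.2 CPM). Cluster 5 (128 cells) led in the interferon-gamma chemokines Cxcl9 (3428 CPM) and Cxcl10 (3925 CPM) and in Acod1, the itaconate-forming enzyme (817 CPM). Cluster 6 (104 cells) was led by Egr1 and Fos, immediate early genes that also respond to tissue digestion. Cluster 7 (74 cells, none from PBS 2) had the shallowest cells, with a median of 4354 UMIs, and led in S100a4 at 4541 CPM.

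Cluster 8 (54 cells) was marked by type I interferon genes, with the antiviral Rsad2 at 1956 CPM and Isg15 at 2326 CPM, and it had the highest Ly6c2 (2663 CPM). Cluster 9 (44 cells, 34 of them with a doublet-range score) was led by Gzma at 2082 CPM, a granzyme of T and NK cells. Cluster 10 (9 cells, median 83290 UMIs, none from PBS 2) was led by the collagen gene Col3a1 at 1374 CPM. Clusters 9 and 10 thus hold markers of other lineages. Nos2, the inducible nitric oxide synthase, was highest in clusters 2 and 3, at 98.8 and 49.9 CPM, and was at 0 in clusters 1, 6, 7 and 9.

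**Figure D2:**
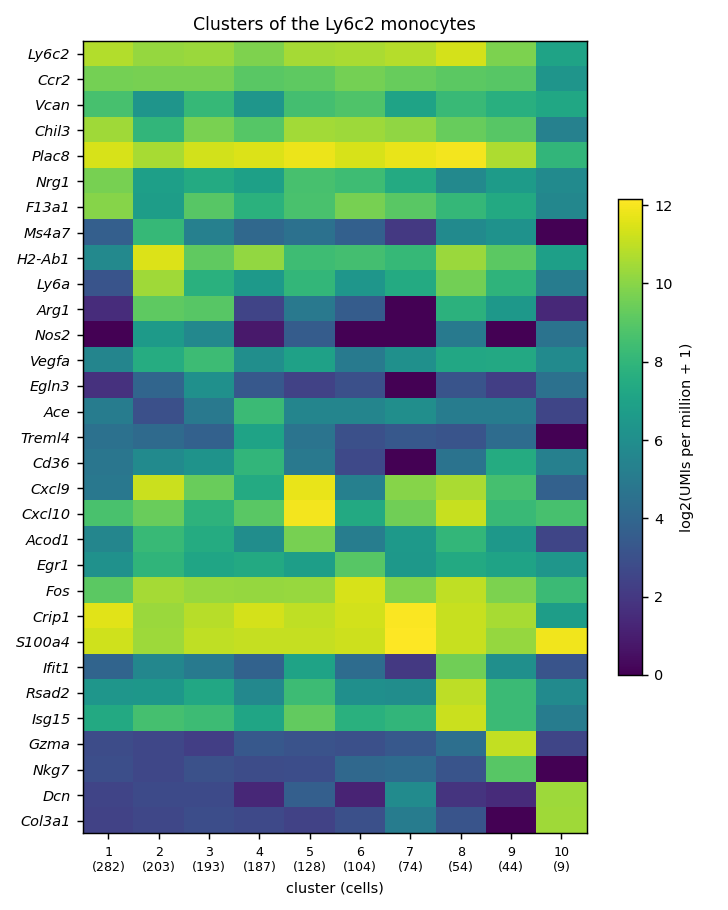
Levels of marker and leading genes (rows) in the 10 clusters of Ly6c2 monocytes (columns, with the number of cells), as log2 of CPM plus 1. Patrolling-monocyte genes peak in cluster 4, Cxcl9 and Cxcl10 in cluster 5, Rsad2 and Isg15 in cluster 8, Gzma in cluster 9 and Col3a1 in cluster 10.

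Treated and PBS monocytes were compared with edgeR's quasi-likelihood test on UMIs summed per library, with Benjamini-Hochberg adjustment over all genes tested and 0.05 as the threshold. Over all 1278 members, no gene of 11047 passed in any comparison (0.0% called). At an unadjusted p under 0.05 there were 411 genes for the combination over PBS, 599 for anti-PD-1 over PBS and 592 for the combination over anti-PD-1. If no gene differed, a share of 0.05 of the 11047 would be expected there. The count of 411 was below that share, and 599 and 592 were close to it. DESeq2 called 2, 0 and 2 genes. Over the 1203 members without other-lineage barcodes, 63 of 10197 genes passed for the combination over PBS (0.618%), 53 for anti-PD-1 over PBS (0.52%) and 68 for the combination over anti-PD-1 (0.667%). When every barcode was thinned to 3000 UMIs before the rule was applied, 6 of 8144 genes passed for the combination over PBS (0.0737%, all higher), 2 for anti-PD-1 over PBS (0.0246%, both higher) and 5 for the combination over anti-PD-1 (0.0614%; 0.0491% higher and 0.0123% lower). Below, "rose" and "fell" refer to the 1203 members unless the thinned data are named. Levels are those over all members. Fold changes are log2, with their standard errors. With a single residual degree of freedom, the number of genes called depended strongly on which barcodes were kept. The spread is pooled over genes in this fit: the standard error of the combination fold was 0.17 for Psmb9, with PBS levels of 135.1 and 118.7 CPM over the 1203 members, and also 0.17 for Ly6a, with 169.0 and 302.1 CPM. An adjusted p therefore need not reflect the gap between the PBS libraries of that gene. Of 56 folds of named genes that passed over the 1203 members, 54 were tested in the thinned data. Of these, 8 passed there and 46 did not, and 8 log2 folds were over 1.5 times smaller or of the other sign.

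In combination monocytes, genes of the interferon-gamma response were higher than in PBS monocytes. Of 31 such genes tested over all members, 27 were above both PBS libraries and 0 below both, with a median log2 fold of 0.50; of all genes tested, 31.1% were above and 33.2% below both, with a median of -0.01. Over the 1203 members, 8 of the 31 rose (0.431% of all genes tested did) and none fell, and 29 were above both PBS libraries. The 8 were Socs1, Gbp2, Gbp4, Gbp7, Psmb9, Fcgr4, Ifi47 and AA467197. The lists were chosen with earlier results of these data known, so the counts are not independent of them.

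Gbp2, a guanylate-binding protein of cell-autonomous defence (chr3:142620602-142638008), had 979 CPM in combination monocytes, 723.8 CPM in anti-PD-1 monocytes, and 410.3 and 623.2 CPM in PBS 1 and PBS 2. The combination level was the highest of the 4, and both treated levels lay above both PBS levels. The combination rose over PBS by 1.04 ± 0.18 (adjusted p = 5.92e-06, edgeR), against 0.93 ± 0.27 over all members (adjusted p = 0.997). Its relative Gbp7 had 245.5, 179.9, 128.4 and 167.0 CPM in the same library order and rose by 0.83 ± 0.17 (adjusted p = 0.000519). Gbp4, which shares 10.6% of the bases at its 3' end with Gbp6, rose by 0.90 ± 0.21 with an adjusted p of 0.00526.

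Socs1, the feedback inhibitor of interferon signalling (chr16:10782240-10785536), had 62.19 CPM in combination monocytes, 36.82 CPM in anti-PD-1 monocytes, and 21.4 and 25.15 CPM in the PBS pair. It showed the highest fold of the list among genes that rose, 1.5 ± 0.25 (adjusted p = 3.58e-06). Psmb9, a subunit of the immunoproteasome, had 204.4 and 155.2 CPM in the combination and anti-PD-1 monocytes, against 136.8 and 119.5 CPM in PBS, and rose by 0.75 ± 0.17 with the combination. Fcgr4, an activating receptor for IgG, had 206.6 and 205.3 CPM in the treated libraries, against 95.66 and 186.3 CPM. Its rise with the combination (0.71 ± 0.17) rests on a PBS pair that differs widely, and over all members the fold was 0.56 ± 0.48. Ifi47, an interferon-inducible GTPase, rose by 0.68 ± 0.17, and AA467197 by 0.65 ± 0.17. AA467197 had 272.3 and 434.6 CPM in PBS 1 and PBS 2, and its fold over all members was 0.62 ± 0.31.

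Members of the list that did not pass varied. Irf1, a transcription factor of the interferon response, had 450.7 and 391.3 CPM in combination and anti-PD-1 monocytes, against 300.4 and 344.2 CPM in PBS. It lay above the PBS pair in both treated libraries without passing. Cxcl9, the chemokine that recruits CXCR3-bearing T cells, had 847.1 and 1181 CPM, against 554.2 and 1171 CPM, so it did not separate treated from PBS monocytes.

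Promoter motifs of the kind printed above thus occur in Socs1, Gbp2, Gbp7 and Fcgr4. Psmb9, which also rose, matched neither in its window, which does not reach the GENCODE start of the gene.

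**Figure D3:**
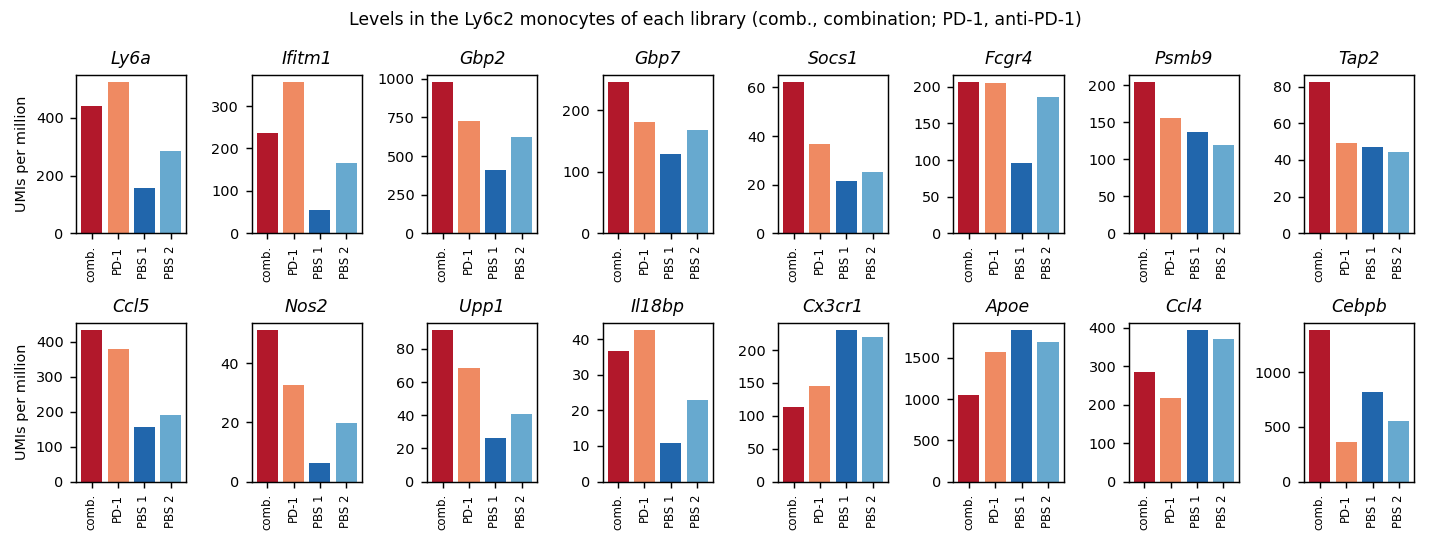
Levels of 16 genes in the Ly6c2 monocytes of each library, in CPM (1 bar per library; no error bars, since each bar is 1 library). Gbp2, Gbp7, Socs1, Psmb9 and Tap2 are highest in the combination library, Ly6a and Ifitm1 in the anti-PD-1 library, and Cx3cr1 is lower in both treated libraries than in either PBS library.

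MHC class I genes showed a similar lean with the combination. Of 20 tested over all members, 17 were above both PBS libraries and 1 below both (31.1% and 33.2% of all genes were), with a median log2 fold of 0.33. Tap2, H2-T22 and Psmb9 rose (0.431% of all genes did). Tap2, a subunit of the peptide transporter of the endoplasmic reticulum, had 82.56 CPM in combination monocytes, 49.34 CPM in anti-PD-1 monocytes and 46.99 and 44.4 CPM in PBS, and rose by 0.94 ± 0.22 (adjusted p = 0.00573). The combination library alone stood apart for this gene. B2m, the invariant chain, had 2468 and 1569 CPM in the treated libraries, against 1635 and 1796 CPM, and did not pass. H2-T22, a non-classical class I gene that shares 17.2% of its 3' bases with H2-T10, rose by 0.81 ± 0.21. In anti-PD-1 monocytes 13 of the 20 were above both PBS libraries and 5 below both (27.2% and 42.2% of all genes were). Psmb10, another immunoproteasome subunit, was the 1 that rose (0.65 ± 0.17, adjusted p = 0.0356, edgeR), against 0.275% of all genes tested.

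MHC class II genes lay mostly within the range of the PBS pair. Of 12 genes, 1 was above both PBS libraries and 0 below in combination monocytes, and 1 above and 1 below in anti-PD-1 monocytes. H2-Ab1 had 858.5 and 926.1 CPM in combination and anti-PD-1 monocytes, against 714.1 and 1067 CPM in PBS. Among 32 type I interferon genes, 17 were above and 9 below both PBS libraries with the combination and 11 above and 13 below with anti-PD-1. Those counts were over all members, where 31.1% of all genes were above and 33.2% below with the combination. With anti-PD-1 27.2% were above and 42.2% below, so the anti-PD-1 counts were near those shares. Without other-lineage barcodes, 22 were above and 2 below with the combination (31.1% and 37.2% of all genes were). The median log2 fold there was 0.226. In the thinned data 25 were above and 3 below (32.2% and 34.6% of all genes were), with a median of 0.177. With anti-PD-1, 15 were above and 9 below without other-lineage barcodes (27.3% and 43.7% of all genes were). In the thinned data 13 were above and 10 below with anti-PD-1 (25.7% and 42.7% of all genes were). Slfn4, a Schlafen gene of myeloid cells, rose with the combination (0.71 ± 0.19, adjusted p = 0.0353) and was the only one of the 32 called, in that comparison, with 0.33 ± 0.20 in the thinned data, where it did not pass. Rsad2 had 164.8 and 190.5 CPM, against 187.1 and 216.5 CPM.

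Ly6a (chr15:74994877-74998031) had 441.4 CPM in combination monocytes, 524.1 CPM in anti-PD-1 monocytes, and 157.7 and 286.1 CPM in the PBS pair. Both treated levels lay above both PBS levels, and the PBS levels were far apart. Ly6a rose by 1.05 ± 0.17 with the combination (adjusted p = 3.58e-06) and by 1.35 ± 0.17 with anti-PD-1 (adjusted p = 7.92e-11). In the thinned data the folds were 1.44 ± 0.18 (adjusted p = 0.0103) and 1.49 ± 0.18 (adjusted p = 0.00584), while over all members they were 1.0 ± 0.41 and 1.33 ± 0.41 and did not pass. Cluster 2, where Ly6a is highest, held 18.4% of combination, 16.6% of anti-PD-1, 9.30% of PBS 1 and 18.1% of PBS 2 members, so PBS 1 had the lowest Ly6a and the smallest share of this cluster. Within cluster 2 Ly6a had 1508 and 2047 CPM in treated monocytes, against 778.8 and 929.7 CPM in PBS. Ly6i, of the same gene family, rose by 0.98 ± 0.22 and 0.96 ± 0.22. Its PBS levels were far apart (70.9 and 142.3 CPM), and over all members its folds were 0.83 ± 0.49 and 0.99 ± 0.49. Ly6a and Ly6i share 13.6% and 25.3% of their 3' bases with I830127L07Rik, so reads could be split between these genes.

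Ifitm1, an antiviral membrane protein, had 237.3 CPM in combination monocytes, 356.4 CPM in anti-PD-1 monocytes, and 54.54 and 166.2 CPM in PBS. It rose in the thinned data, by 1.70 ± 0.25 (adjusted p = 0.0194) with the combination and 2.29 ± 0.23 (adjusted p = 0.00158) with anti-PD-1. Over the 1203 members it did not pass (1.34 ± 1.07 and 1.86 ± 1.05), the PBS libraries differing about as much from each other as from the treated ones. Its 3' end shares 26.6% of its bases with Gm7676.

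Effector genes gave less even results. Nos2 had 51.11 CPM (143 UMIs) in combination monocytes, 32.64 CPM (86 UMIs) in anti-PD-1 monocytes, and 6.29 CPM (15 UMIs) and 19.65 CPM (50 UMIs) in PBS. It rose with the combination in the thinned data (3.87 ± 0.53, adjusted p = 0.0128) but not over the 1203 members (2.47 ± 1.84, adjusted p = 0.928) or over all members (1.97 ± 0.55, adjusted p = 0.997). Over the 1203 members its levels were 62.57 and 36.78 CPM in treated monocytes, against 0.491 and 21.13 CPM in PBS, so most PBS 1 UMIs of Nos2 lay in barcodes that were left out. Ccl5, a chemokine also made by T and NK cells, had 432.8 and 379.2 CPM in treated monocytes, against 156.9 and 191.4 CPM. It rose with the combination in the thinned data by 1.27 ± 0.16 (adjusted p = 0.0103) and was 1 of the 2 genes DESeq2 called over all members. Without other-lineage barcodes its level was 407.8 and 280.8 CPM in treated monocytes, against 57.98 and 150.0 CPM, and it did not pass (1.98 ± 0.94). T cells of these libraries held Ccl5 in 54.7% to 63.2% of cells at 3000 UMIs, and the part of T cell transcripts in its level was not tested.

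Genes outside the lists were named after their values were seen. Upp1, uridine phosphorylase, had 91.14 and 68.32 CPM in treated monocytes, against 26.43 and 40.47 CPM, and rose in both (1.60 ± 0.21 and 1.05 ± 0.23, adjusted p = 8.05e-10 and 0.00457). Il18bp, the decoy that binds interleukin-18, had 36.81 and 42.51 CPM, against 10.91 and 22.79 CPM, and rose in both as well (1.17 ± 0.29 and 1.42 ± 0.28, adjusted p = 0.0117 and 0.000564). Tnfaip6, a hyaluronan-binding protein that TNF induces, rose with the combination by 1.29 ± 0.24. The T cell genes Camk4 and Tox were also among those called for the combination, with 32.17 and 27.52 CPM over all combination members and 17.08 and 15.18 CPM over anti-PD-1 members, against 3.78 to 5.89 CPM in PBS. They rose with the combination by 3.40 ± 0.48 and 3.16 ± 0.53 over the 1203 members, and their source in these barcodes was not tested. In the thinned data the folds were 1.89 ± 0.42 (adjusted p = 0.289) and 0.92 ± 0.49 (adjusted p = 0.718).

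Fewer genes fell with the combination (19, or 0.186%). Cx3cr1, the fractalkine receptor that is high on patrolling monocytes and on many macrophages, had 113.7 CPM in combination monocytes, 145.7 CPM in anti-PD-1 monocytes, and 229.9 and 220.5 CPM in PBS. Both treated levels lay below both PBS levels, and the PBS levels were close. It fell with the combination by 0.85 ± 0.18 on the log2 scale (adjusted p = 0.00112). Of 26 macrophage maturation genes, 2 were above and 13 below both PBS libraries with the combination (31.1% and 33.2% of all genes were). Apoe, Ms4a7 and Pf4 fell (0.186% of all genes did). The list includes C1qa, C1qb and C1qc, which the rule capped, so its counts partly describe the choice of members. In the thinned data 6 of 23 were above and 6 below both PBS libraries (32.2% and 34.6% of all genes were), with a median log2 fold of 0.003. Apoe fell by 0.77 ± 0.21 (adjusted p = 0.0353). Ms4a7 had 42.53 CPM in combination monocytes, against 68.39 and 109.2 CPM in PBS, and fell by 1.26 ± 0.23, but its fold was 0.04 ± 0.28 in the thinned data. None of 10 patrolling-monocyte genes tested was called, and Ace, the angiotensin-converting enzyme, had 66.5 and 67.6 CPM in treated monocytes, against 63.4 and 60.1 CPM.

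Several chemokine genes fell. Of 17 tested, 4 were above and 7 below both PBS libraries with the combination (31.1% and 33.2% of all genes were). With anti-PD-1, 4 were above and 10 below (27.2% and 42.2% of all genes were). Over the 1203 members 3 and 4 of them fell (0.186% and 0.245% of all genes did). In the thinned data 4 of 15 were above and 6 below with the combination (32.2% and 34.6% of all genes were). With anti-PD-1, 6 were above and 7 below there (25.7% and 42.7% of all genes were). In the thinned data 0 of the 15 were called lower. Ccl24, which attracts eosinophils, had 1 UMI in combination and 3 UMIs in anti-PD-1 monocytes, against 43 and 23 UMIs in PBS. The ratio to the PBS pair was 0.0267 (exact interval 0.000666 to 0.154) for the combination and 0.085 (0.0171 to 0.26) for anti-PD-1, with intervals that cover counting error only, and it fell in both comparisons. The fitted combination fold was -4.90 ± 0.89 over the 1203 members but -1.94 ± 0.75 in the thinned data (adjusted p = 0.622). Pf4, also a platelet gene, had 5 and 10 UMIs, against 46 and 27 UMIs, and fell in both. Ccl7, a ligand of CCR2, fell with the combination by 0.83 ± 0.21. Cxcl2, which attracts neutrophils, had 633.0 and 601.6 CPM in treated monocytes, against 872.7 and 1346 CPM, and fell with anti-PD-1 (0.72 ± 0.19 lower on the log2 scale). Ccl4 had 285.2 and 218.2 CPM, against 393.5 and 370.6 CPM, and fell with anti-PD-1 by 0.70 ± 0.18.

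With anti-PD-1 alone, the interferon-gamma list leaned the same way by less. Of its 31 genes, 21 were above and 3 below both PBS libraries (27.2% and 42.2% of all genes were), with a median log2 fold of 0.30, and over the 1203 members Fcgr4 was the 1 that rose (0.68 ± 0.17, adjusted p = 0.0356). Of all genes tested over the 1203 members, 0.275% rose with anti-PD-1. Anti-PD-1 and the combination share the PBS libraries, so their folds are not independent. Grina rose most clearly outside the lists, at 199.6 CPM in anti-PD-1 monocytes and 148.3 CPM in combination monocytes, against 73.84 and 118.3 CPM (1.15 ± 0.17, adjusted p = 2.32e-07, for anti-PD-1). Chil3 rose by 0.68 ± 0.18 (adjusted p = 0.046) and shares 22.3% of its 3' bases with Chil4. Cfb, complement factor B, rose by 0.73 ± 0.19, with PBS levels of 61.25 and 110.8 CPM and a fold of 0.72 ± 0.38 over all members. Of its 3' bases 91.9% also lie in Gm20547, so its reads cannot be told apart from that gene's. Among genes that fell were Nt5e, which forms adenosine (1.07 ± 0.28 lower on the log2 scale), Inhba, a subunit of activin (1.48 ± 0.35 lower), and the immediate early gene Btg2 (0.68 ± 0.18 lower). In the thinned data the fold was -0.46 ± 0.35 for Nt5e (adjusted p = 0.682) and -0.28 ± 0.46 for Inhba (adjusted p = 0.865).

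Genes of the respiratory chain leaned upward in anti-PD-1 monocytes without passing against PBS. Of 41 genes, 35 were above and 2 below both PBS libraries (27.2% and 42.2% of all genes were), with a median log2 fold of 0.35, but 0 were called by edgeR in the 1278 or the 1203 members. Cox4i1, a subunit of cytochrome c oxidase, had 909.8 CPM in anti-PD-1 monocytes, against 700.2 and 676.3 CPM in PBS. In combination monocytes 6 of the 41 were above and 15 below both PBS libraries (31.1% and 33.2% of all genes were), with a median of -0.02. Over the 1203 members 4 were above and 28 below both (31.1% and 37.2% of all genes were), with a median of -0.09. Cox4i1 had 692.3 CPM in combination monocytes. Set against the anti-PD-1 library directly, 38 of the 41 were lower in the combination library over the 1203 members. Of all 10197 genes tested, 4583 were lower. Of the 41 genes, 4 passed (0.304% of all genes were called lower). The 4 were Ndufc1, Uqcr11, Uqcr10 and Uqcrq, subunits of respiratory complexes, named after their values were seen. Uqcr11 had 152.3 CPM in combination and 255.8 CPM in anti-PD-1 monocytes. The anti-PD-1 members were also the shallowest; over the other settings, thinned barcodes included, the list's median lay between 0.29 and 0.4 for anti-PD-1 and between -0.09 and 0.06 for the combination.

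**Figure D4:**
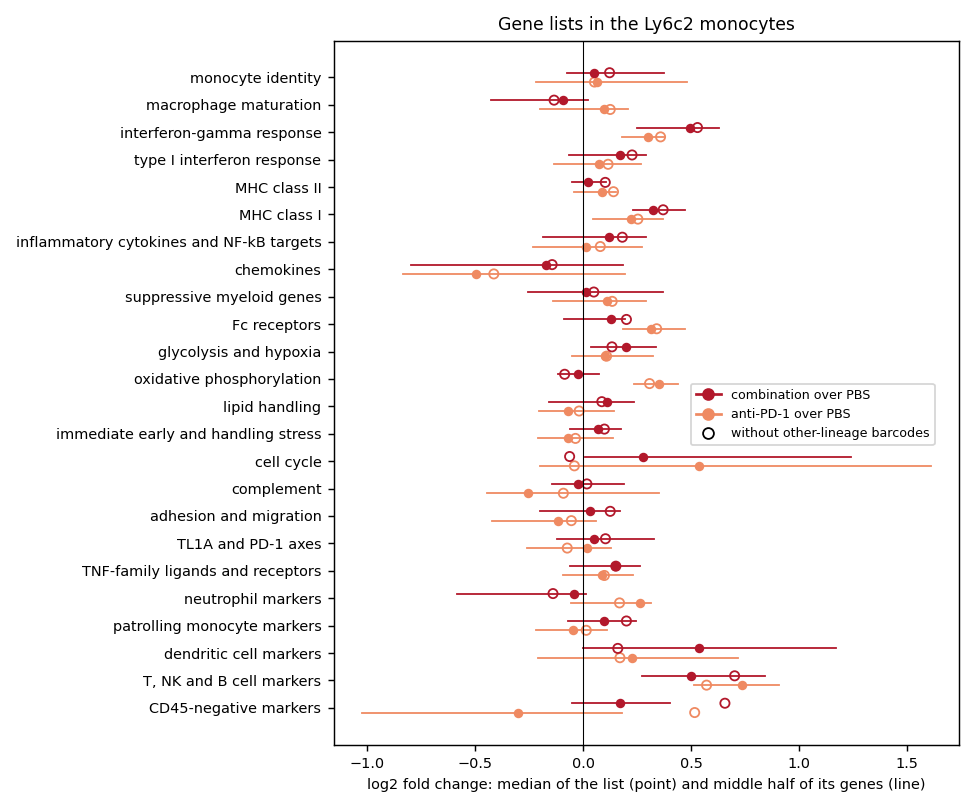
Log2 fold changes of the gene lists in Ly6c2 monocytes. Filled points are medians of a list's tested genes over all 1278 members, lines span the quartiles of those genes, and open circles are medians over the 1203 members; dark red is the combination over PBS and orange is anti-PD-1 over PBS. The interferon-gamma list lies at 0.50 and 0.30, and the oxidative phosphorylation list at -0.02 and 0.35.

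The combination and anti-PD-1 monocytes were each 1 library, so this comparison sets 2 libraries, not 2 conditions, side by side. Over the 1203 members 37 genes were higher in the combination library (0.363%) and 31 lower (0.304%). Cebpb, a transcription factor of monocyte and neutrophil development, had 1383 CPM in combination and 362.1 CPM in anti-PD-1 monocytes, against 819.8 and 555.6 CPM in PBS. It rose over anti-PD-1 by 1.93 ± 0.22 (adjusted p = 2.38e-13), and the treated libraries lay on opposite sides of the PBS pair: it rose over PBS with the combination (1.09 ± 0.18) and fell with anti-PD-1 (0.84 ± 0.20 lower on the log2 scale). Zfp36, which destabilises cytokine transcripts, had 584.7 and 238.4 CPM in the treated libraries, against 310.5 and 281.4 CPM in PBS, and rose over anti-PD-1 by 1.26 ± 0.20. Pfn1, the actin-binding profilin, had 890.0 and 266.1 CPM, against 516.0 and 427.1 CPM, and rose by 1.76 ± 0.21. Cebpb, Zfp36, Pfn1 and Btg2 passed in the thinned data too. For each of these 4 genes the PBS pair lay between the treated libraries. For Cebpb this order was not particular to the monocytes. In the combination, anti-PD-1, PBS 1 and PBS 2 libraries it had 464.7, 128.6, 224.8 and 197.5 CPM in intermediates. It had 329.6, 72.06, 152.2 and 106.4 CPM in C1q macrophages, and 2394, 520.2, 1347 and 848.8 CPM in neutrophils.

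Plac8 had 3309 CPM in combination and 1782 CPM in anti-PD-1 monocytes and rose by 0.90 ± 0.24 (adjusted p = 0.0395), while PBS 1 and PBS 2 stood at 2694 and 1989 CPM. Sod2, which is induced by NF-kB, and Ptgs2, the inducible cyclooxygenase, rose over PBS with the combination by 0.62 ± 0.17 and 0.76 ± 0.19, with 0.35 ± 0.16 for Sod2 in the thinned data. They were the 2 of 27 inflammatory and NF-kB genes that rose (0.431% of all genes tested did). In the thinned data 0 of 25 such genes were called. Klf2 (0.65 ± 0.17), Zfp36 and the heat shock gene Hspa1a were the 3 of 24 immediate early and handling genes that rose over PBS (0.431% of all genes tested did). Hspa1a had 58.58 CPM in combination monocytes, against 35.38 and 21.97 CPM in PBS, over the 1203 members. Cdk8 and Lars2 were lower in the combination than in the anti-PD-1 library, by 1.19 ± 0.21 and 0.94 ± 0.20 on the log2 scale, and Mt1, a metallothionein, by 0.81 ± 0.20. Mt1 also fell against PBS (0.88 ± 0.18 lower).

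Markers of other cells were looked at in the same fits. Over all members 9 of 14 T, NK and B cell markers were above both PBS libraries in combination monocytes and 11 of 14 in anti-PD-1 monocytes (31.1% and 27.2% of all genes were), with median log2 folds of 0.50 and 0.74. This list thus leaned at least as far as the interferon-gamma list, and its part in the other results was not tested. The 1203 members were chosen by this list, so calls of its genes there say nothing; its medians were 0.70 and 0.57. Of 6 neutrophil markers S100a9 was the 1 called over PBS, lower with the combination (0.186% of all genes tested were).

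Genes of the blocked pathways were rare in these cells or did not pass. Tnfsf15, encoding TL1A, had 0, 1, 0 and 1 UMI-bearing members in the combination, anti-PD-1, PBS 1 and PBS 2 libraries. Tnfrsf25, its receptor, had none, which allows shares of up to 0.89%, 0.674%, 1.16% and 1.26% of members with a UMI (3 counts of the total). Cd274, encoding the PD-1 ligand PD-L1, had 396.7 CPM in combination monocytes and 337.0 CPM in anti-PD-1 monocytes, against 238.7 and 315.2 CPM in PBS. Both treated levels were above both PBS levels, and Cd274 did not pass.

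Members with a UMI were counted after each member was thinned to 3000 UMIs (6, 24, 3 and 1 shallower members left out). Gbp2 was seen in 67.1% of combination, 57.0% of anti-PD-1, 41.6% of PBS 1 and 49.8% of PBS 2 monocytes, against 24.7%, 20.4%, 16.9% and 19.1% of T cells at the same depth, so it was above the share in T cells in each library. Without thinning it was seen in 78.3%, 66.3%, 58.1% and 68.9%. Cx3cr1 was seen in 27.8%, 29.7%, 46.3% and 44.3% (unthinned 43.6%, 43.6%, 66.3% and 66.0%), against 12.4% to 14.5% of T cells. Nos2 was seen in 5.44%, 5.23%, 0.392% and 1.69% (unthinned 9.50%, 6.29%, 1.16% and 3.36%), and the share in T cells was 1.36%, 0.803%, 0.416% and 0.338%. The PBS 1 share was close to that of the T cells of PBS 1 and rests on 1 of 255 members. Socs1, at 14.5%, 8.55%, 5.10% and 6.33%, was no more frequent than in T cells (15.3%, 8.90%, 13.1% and 11.3%). It was more frequent than in C1q macrophages at the same depth (8.16%, 4.10%, 1.48% and 0.980%). The T cell share may hold expression of their own, and whether the monocyte share lies above background was not tested.

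**Figure D5:**
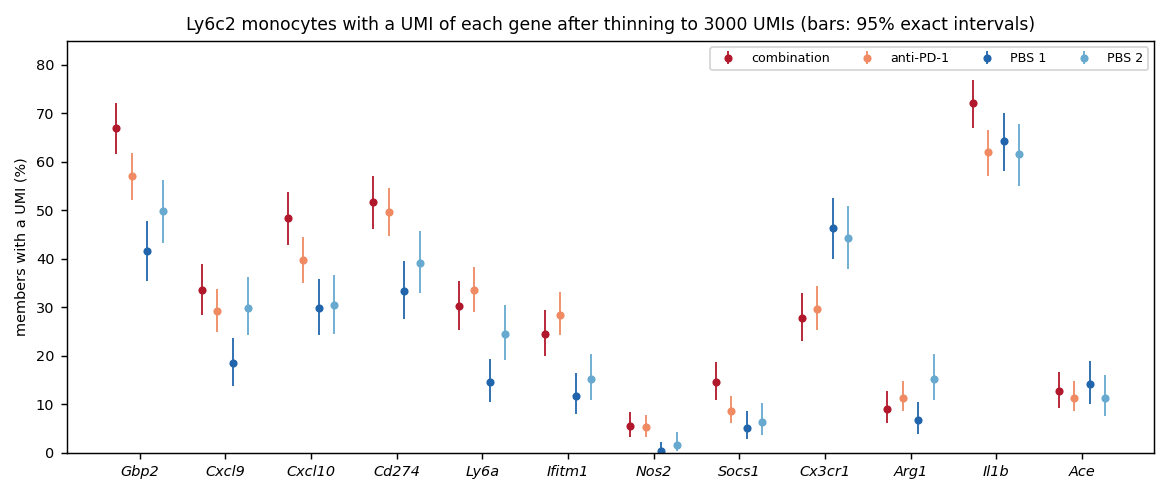
Shares of Ly6c2 monocytes with at least 1 UMI of 12 genes after thinning to 3000 UMIs per member, in percent, with 95% exact intervals that cover counting error only. Gbp2 lies at 67.1% and 57.0% in the combination and anti-PD-1 libraries and at 41.6% and 49.8% in the PBS pair; Cx3cr1 lies at 27.8% and 29.7% against 46.3% and 44.3%.

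The differences were looked for within the 6 clusters of at least 100 members, as a description. Gbp2 was above both PBS libraries in 6 of 6 clusters for the combination and in 5 of 6 for anti-PD-1. In cluster 4, which carries patrolling genes, it had 698.3 and 502 CPM in the treated libraries, against 113.9 and 138.4 CPM, and in cluster 5, where Cxcl9 and Cxcl10 lead, 1920 and 1896 CPM, against 1546 and 1698 CPM. Socs1 was above both in 6 and 5 of 6 clusters, and Cx3cr1 below both in 5 and 4 of 6. Ly6a was above both in 5 clusters for the combination and 3 for anti-PD-1, and in cluster 6 it had 40.5 and 66.0 CPM in treated monocytes, against 55.5 and 154.3 CPM.

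Whether the treatment differences themselves differed between the monocytes and the C1q macrophages of the same libraries was tested as an interaction with the library as block. No gene of 11871 passed for the combination or for anti-PD-1 (0.0% called). At an unadjusted p under 0.05 there were 259 and 244, both below a share of 0.05 of the genes tested. DESeq2 called 0 and 1 genes, the 1 being Plac8 for anti-PD-1. Gbp2 had 713.4, 570, 254.3 and 332.7 CPM in the macrophages of the combination, anti-PD-1, PBS 1 and PBS 2 libraries, and the difference of its folds, monocytes minus macrophages, was -0.34 ± 0.21 for the combination and -0.48 ± 0.21 for anti-PD-1 (adjusted p = 1 for both, edgeR). For Ly6a, with 1170, 1269, 373.4 and 417 CPM in the macrophages, it was -0.51 ± 0.35 and -0.42 ± 0.35 (adjusted p = 1 for both). Cx3cr1 had 341.4 and 430.6 CPM in treated macrophages, against 678.7 and 681.3 CPM, and its difference was 0.02 ± 0.21 for the combination and 0.01 ± 0.21 for anti-PD-1.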

How the data were processed

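The authors deposited 1 matrix of raw UMI counts for each library; the file headers name Cell Ranger 7.1.0. Cell Ranger 3.0.2 and mm10 are named in the submitters' processing notes. No source used here says if intronic reads were counted. Members were found by the stated counts, and the members and gene lists (25 lists, 472 of 477 genes in the files) were chosen with earlier results of these data known. Members' UMIs were summed in each library. The sums were fitted by group with the robust quasi-likelihood method of edgeR 4.0.16 (R 4.3.3; TMM, filterByExpr with a minimum count of 10, 1 residual degree of freedom, Benjamini-Hochberg, threshold 0.05). The fit over 1203 members was added after the data were seen, and so were 2 other settings. Other settings used DESeq2 1.42.0, RLE size factors, no filter, equal totals, thinning to 3000 UMIs, a stricter rule, and members left out by doublet score, shared barcode, mitochondrial share, S100a8 and S100a9, or cycling genes. Genes to be named were the 12 highest and 12 lowest among those that passed over all members (6 each for the treated pair and for class differences). Since none passed, the genes named are list members or were chosen after their values were seen. Scrublet's automatic threshold marked at most 0.0289% of barcodes and was not used; the highest scores at 0.8% per 1000 barcodes marked 17, 18, 9 and 5 members, which stayed in. Clusters came from Leiden (scanpy 1.11.5, igraph 0.11.9, 1500 variable genes, 20 components, 15 neighbours, resolution 0.8). Positions are GENCODE M21 on GRCm38, and shared 3' bases are 31-base stretches of the last 500 bases found in other genes; besides those given with the results, Ly6c2 shares 47.7% with Ly6c1, Sod2 16.8%, Cx3cr1 10.4% and AA467197 10.4% with other genes.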

Additional observations from a re-analysis of the deposited data

How the results depend on the processing

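Genes called for the combination over PBS, anti-PD-1 over PBS and the combination over anti-PD-1 were 0, 0 and 0 over all members. They were 2, 0 and 2 with DESeq2, 6, 2 and 5 with barcodes thinned to 3000 UMIs, 15, 14 and 13 without doublet-range members, 385, 138 and 157 without members whose barcode occurs in another library, 25, 28 and 59 under 5% mitochondrial UMIs, 93, 63 and 59 without cycling members, and 1, 0 and 0 with S100a8 and S100a9 at most 2 UMIs. In the settings added after seeing the data they were 4, 0 and 0 at up to 30000 UMIs, 63, 53 and 68 over the 1203 members, and 6, 0 and 2 with edgeR's legacy fit. RLE size factors, no filter, equal totals and the stricter rule called 0 in each. DESeq2 called Ccl5 and Klhl13, then Cebpb and Pfn1. For the difference between monocytes and macrophages, DESeq2 and the fit without other-lineage barcodes each called 1 gene for anti-PD-1 (Plac8), and the fit without shared barcodes called 1 for the combination (Gzma). Of 60 named folds under 16 alternatives, 767 values kept direction without passing, as over all members, and 190 kept direction and passed. The 767 include the values without a PBS library, which have no p-value. The 190 include those over the 1203 members, a fit added after the data were seen. The 1 value that changed sign was Ms4a7 for the combination over PBS, at 0.04 in thinned barcodes, and the cause was not tested. All 60 folds kept their direction without either PBS library. For the folds over PBS this was fixed in advance, since each treated level lay outside the PBS pair. Folds of the combination over anti-PD-1 use no PBS level. Without 1 PBS library no residual degree of freedom is left, and no count of calls can be had. The median of the interferon-gamma list ranged between 0.33 and 0.62 for the combination and between 0.14 and 0.50 for anti-PD-1. Shares among phagocytes became 62.2%, 57.3%, 59.2% and 65.3% (combination, anti-PD-1, PBS 1, PBS 2) without cycling cells. They became 46.0% and 43.0% in the combination and anti-PD-1 libraries under the stricter rule. Without shared barcodes they became 48.9% in PBS 1 and 63.8% in PBS 2, and without other-lineage barcodes 46.5% and 59.6%. PBS 1 came to 46.3% under 5% mitochondrial UMIs, and PBS 2 to 56.0% at up to 30000 UMIs. No paired analysis was possible because the labels record no pairing of libraries and each treated group is 1 library. Depth limits Ccl24, which rests on 1 to 43 UMIs a library, and Pf4, on 5 to 46.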
